A study of Homo sapiens with 8 samples.

Results

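Interferon response genes are the genes that cells switch on after sensing interferon or foreign nucleic acid. A total of 36 were chosen by name from the pathway, with earlier results of these data known. The set held 35 listed symbols and RIGI, which the table carries under its older name DDX58. All 36 genes had a row among the 34602 gene rows of the deposited table. They were followed in Huh-1, an established human hepatocellular carcinoma line, on Illumina bead arrays that measure labelled cRNA from total RNA. The groups were Huh-1 cells transfected with siLSD1, an siRNA against the histone demethylase LSD1 (gene KDM1A), and Huh-1 cells transfected with a control siRNA (siControl). Cells of both groups were reverse-transfected with RNAiMAX and, 48 h later, were moved to 1% O2 for 24 h, so that every culture was transfected and hypoxic; untransfected cells and cells at normal oxygen were not analysed here. The labels give 2 biological replicates per group with 2 technical arrays each, 8 arrays in all, and do not say whether the biological replicates came from separate days. The line is a tumour line without immune or stromal cells, which limits it as a model of interferon signalling in liver, and the labels do not give the sequence or number of the siRNAs.

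In this pathway, interferons bind receptors on the cell surface, and the kinases JAK1 and TYK2 then phosphorylate STAT proteins. Type I and type III interferons act through a complex with STAT2 and IRF9 that binds the interferon-stimulated response element (ISRE), while interferon-gamma acts through the gamma-activated site (GAS). Infected cells start the loop through RNA sensors such as RIG-I (RIGI) and MDA5 (IFIH1), which lead to activation of IRF3 and IRF7. Hepatocytes respond to type I and type III interferon.

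The arrays were alike in overall brightness, with a median signal of 167.9 to 179.9, and 12860 to 19896 gene rows per array were brighter than all of the 92 ERCC control rows (probes for synthetic transcripts) on that array. Whether ERCC transcripts had been added was not stated; the highest control row had a signal of 164 to 228. KDM1A, the siRNA target, had signals of 1576, 1568, 1343 and 1327 in siLSD1, against 3920, 3642, 5035 and 3998 in siControl, without overlap between the groups. The siControl replicates differed from each other with an SD of 0.48 over the 16049 genes tested (log2 difference), and the siLSD1 replicates with an SD of 0.18. Hepatocyte and hepatoma markers were present as labelled, with 12 of 12 bright enough to be tested. At an adjusted p under 0.05, 0 of the 12 passed. That says nothing on their steadiness, since 0 of all 16049 genes passed, KDM1A included (limma adjusted p = 0.199). The summed signal of the 12, most of it from ALB and TF, was 211783 to 221447 in siLSD1 and 191768 to 213960 in siControl. Single markers differed between siControl replicates 1 and 2. GPC3 had 2453 and 2285 against 5530 and 4900, and FGB 11542 and 10537 against 4716 and 4827. Of 12 leukocyte markers 4 were bright enough to be tested and, as among all genes, 0 passed. The defining markers PTPRC, CD3E, CLEC4C and LILRA4 were above the control rows on 0 of 8 arrays. The summed leukocyte signal was 3310 to 3510 in siLSD1 and 3519 to 4416 in siControl; its part in the results below was not tested. Of 7 fibroblast and stellate markers 1 was tested (summed signal 1873 to 2098 in siLSD1, 2008 to 2225 in siControl), and of 4 endothelial markers 0 were tested (484 to 543 in siLSD1, 462 to 536 in siControl).

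Detection came first, because some interferon response genes were dim in these cells. A gene was tested where its non-normalized signal was above every ERCC control row on at least 4 of the 8 arrays. This held for 26 of the 36 genes, against 16049 of all 34602 gene rows. On all 8 arrays 22 of the 36 were above, against 12255 of all gene rows, so the set was detected more often than gene rows at large. RIGI, HERC5, HERC6 and CXCL10 passed on fewer arrays. IFIT5, OAS2, BST2, IFI27 and IFI44L were above on 0 arrays, and MX1, RSAD2, USP18, IFITM1 and IFI44 on 1 or 2. The deposited detection p-value is not a rank of signal in this table: 761 of the 12255 rows brighter than every control row throughout never reached a detection p under 0.01. IRF7 was such a row, with signals of 1279 to 2531 and detection p from 0.018 to 0.095. By detection p under 0.01, 15 genes passed on all 8 arrays and 22 on at least 4, against 10594 and 12870 of all gene rows. RIGI, IRF7, OASL and CXCL10 were tested although they did not reach 4 arrays by detection p.

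**Figure D1:**
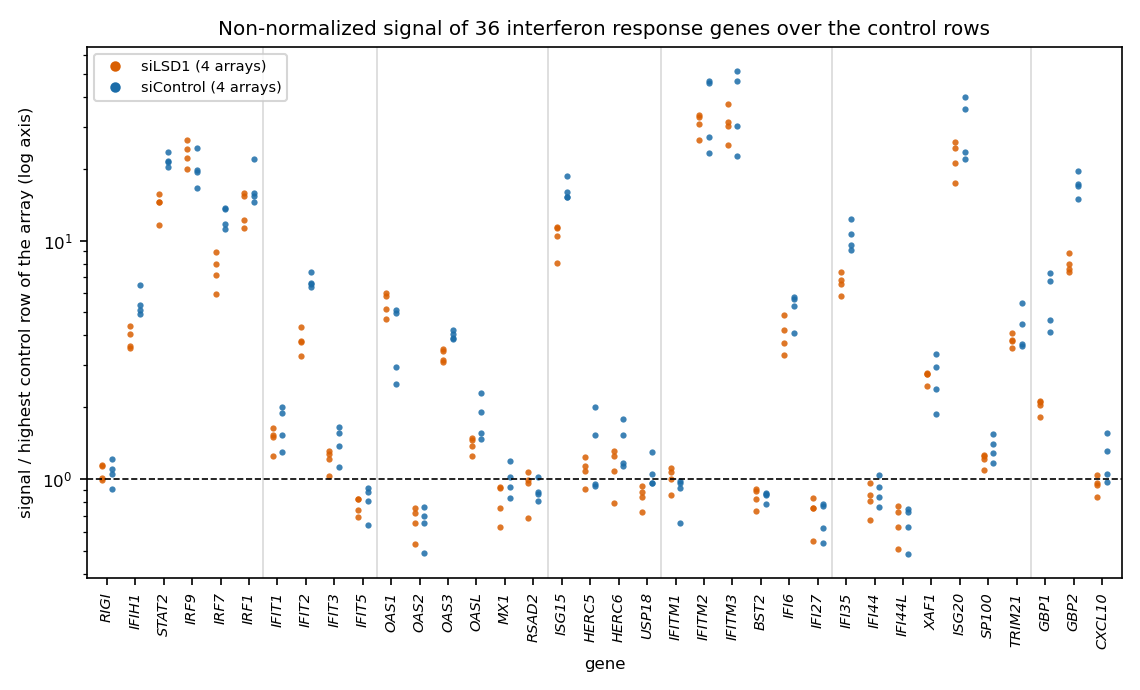
Non-normalized signal of each of the 36 genes divided by the highest ERCC control row of the same array (log axis), for 4 siLSD1 arrays and 4 siControl arrays per gene; the dashed line marks the control row and grey lines part the role groups. Levels of different genes come from different probes and are not to be set against each other; 22 genes lie above the line on all 8 arrays and 5 genes lie below it on all 8.

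Promoter sequence was available for 29 of the 36 genes (RefSeq, GRCh38.p14, 250 bases before to 50 after the start, 37 windows in all). GBP2, IFIT2, IFITM2, IRF7, OAS2, OASL and USP18 had no entry. Windows were searched on both strands for an ISRE core, GAAA and GAAA with any 2 bases between (TTTC and TTTC on the other strand), and for a GAS core, TTC and GAA with any 3 bases between, which reads the same on both; matches may overlap each other. An ISRE core was found for 20 of the 29 genes (69%), against 4.38% of the 27305 genes in the table, and a GAS core for 8 (27.6%), against 9.38%. HERC6, RIGI, SP100, STAT2 and XAF1 had neither in these windows. A match is a stretch of letters, not a shown binding site. Stretches of 60 bases before the start are shown for those genes at an unadjusted p under 0.05 in the comparison below that have a match. STAT2 has an entry and no match, and is not shown. Stretches are also shown for IFIT1, IFIT3, IFI6, OAS3, OAS1 and IRF9, picked from the other genes tested. Capitals mark the ISRE or GAS core.
ISG15, chr1:1013365-1013424, plus strand: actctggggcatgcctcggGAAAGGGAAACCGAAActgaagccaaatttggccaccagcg
GBP1, chr1:89065301-89065360, minus strand: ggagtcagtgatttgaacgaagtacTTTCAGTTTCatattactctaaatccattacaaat
IFIH1, chr2:162318685-162318744, minus strand: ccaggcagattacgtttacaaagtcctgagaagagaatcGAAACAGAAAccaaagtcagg
IFI35, chr17:43006724-43006783, plus strand: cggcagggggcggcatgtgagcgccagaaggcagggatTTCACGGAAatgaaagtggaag
IFIT1, chr10:89392495-89392554, plus strand: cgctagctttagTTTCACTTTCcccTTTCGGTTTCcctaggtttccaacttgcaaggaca
IFIT3, chr10:89332453-89332512, plus strand: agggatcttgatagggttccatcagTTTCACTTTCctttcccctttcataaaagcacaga
IFI6, chr1:27672251-27672310, minus strand: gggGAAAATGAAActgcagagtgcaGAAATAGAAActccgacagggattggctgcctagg
OAS3, chr12:112938414-112938473, plus strand: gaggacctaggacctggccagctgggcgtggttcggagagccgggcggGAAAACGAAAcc
OAS1, chr12:112906768-112906827, plus strand: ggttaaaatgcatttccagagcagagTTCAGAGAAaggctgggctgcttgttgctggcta
IRF9, chr14:24161176-24161235, plus strand: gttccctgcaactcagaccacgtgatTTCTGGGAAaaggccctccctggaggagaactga

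In ISG15 the ISRE cores overlap and lie 98 to 113 bases before the start, and in IFIT1 they stand side by side, 94 to 116 bases before it. GBP1 had its ISRE core 118 to 127 bases before the start. IFI35, IRF9 and OAS1 had a GAS core in place of an ISRE core in this window. All 8 genes with an entry that were too dim to be tested had an ISRE core, as did 12 of the 21 that were tested.

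**Figure D2:**
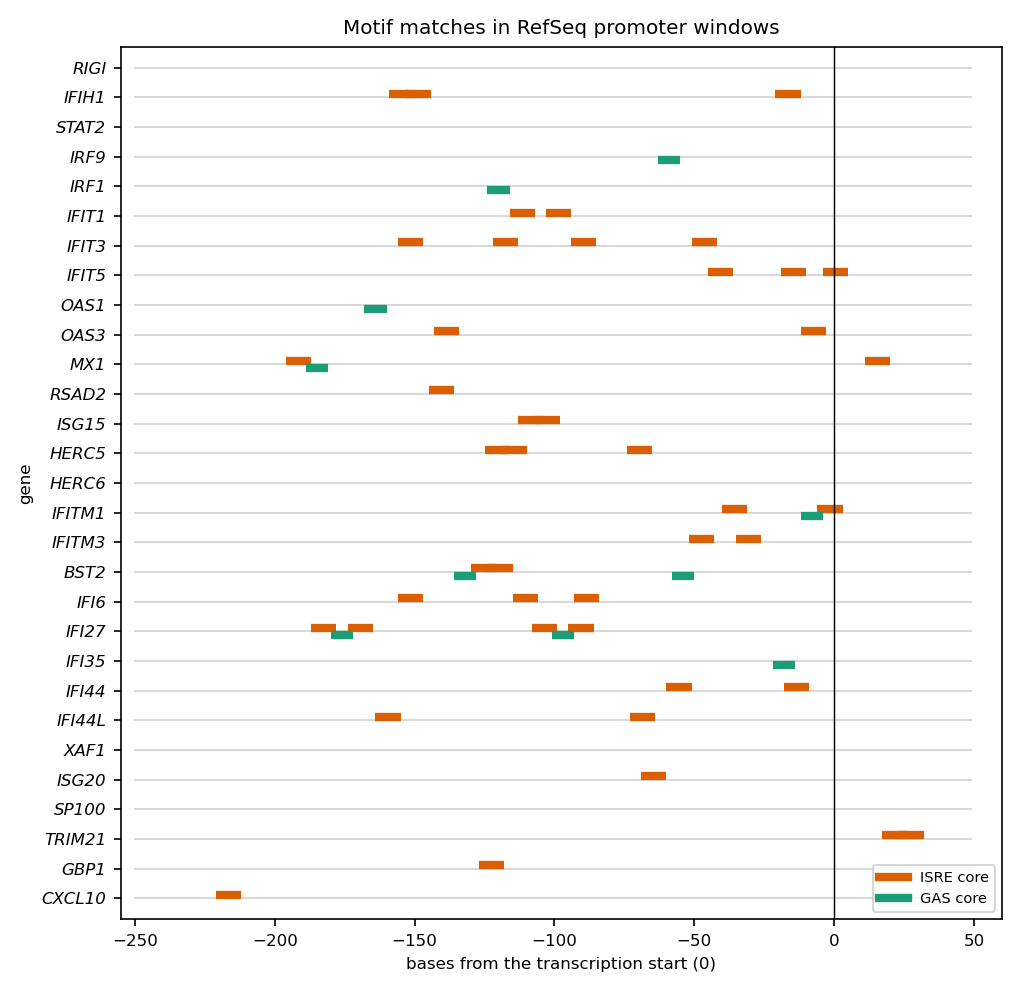
Position of ISRE cores (orange) and GAS cores (green) in the promoter windows of 29 interferon response genes, in bases from the transcription start; where a gene has several starts in the table, matches are drawn from each start on the same line. ISRE cores were found for 20 genes and GAS cores for 8.

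In siLSD1 cells most of the interferon response genes that could be tested had lower estimates than in siControl cells. The genes were chosen with earlier results of these data known, so their shares beside all genes are description and no independent test. The estimate was lower for 23 of 26 genes, against 48.9% of all 16049 genes tested, and the median log2 difference was -0.38, against 0.01 over all genes tested. IRF9, OAS1 and XAF1 were the 3 with higher estimates. Over all 36 genes, the dim ones included, 31 were lower with a median of -0.31. Of all 34602 gene rows 17268 were lower, with a median of 0.0004. The 10 genes not tested were at or near the control rows, so their signs are uncertain. Limma called 0 of the 26 at an adjusted p under 0.05, as it called 0 of all genes (0%), with adjusted p from 0.199 to 0.984. At an unadjusted p under 0.05 there were 8, all lower (GBP1, GBP2, IFIT2, IRF7, IFI35, STAT2, ISG15 and IFIH1), where 5.74% of all genes were lower and 5.73% higher at that level. For 12 of the 26 genes the highest of the 4 siLSD1 arrays was under the lowest of the 4 siControl arrays, against 11.5% of all genes, and for OAS1 alone the lowest siLSD1 array was over the highest siControl array, against 12% of all genes. With 2 samples against 2, a two-sided exact permutation test cannot give a p below 0.333, and precision is limited by how few cultures there are. After the neqc background correction, which rests on the deposited detection p-values, the median of the 26 was -0.11, and GBP1, IFIT2 and IFIH1 stood at -0.43, -0.36 and -0.19. The arrays measure RNA of whole cultures, so that fewer responding cells and less RNA per cell cannot be told apart.

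**Figure D3:**
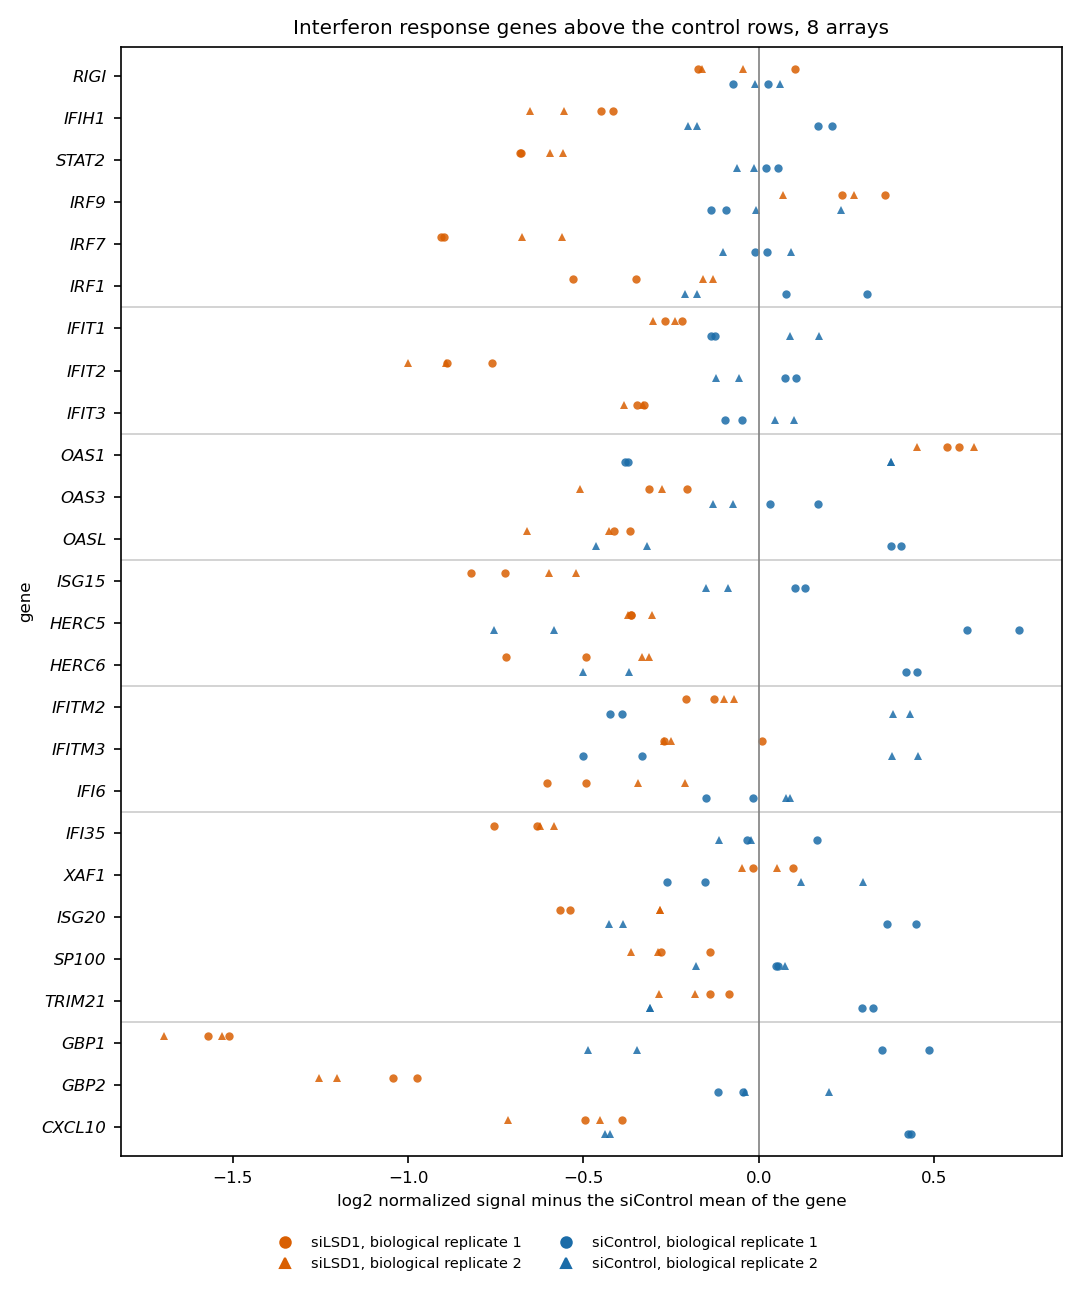
Log2 normalized signal of the 26 genes tested on each of the 8 arrays, minus the siControl mean of the gene; orange marks siLSD1, blue siControl, circles biological replicate 1 and triangles biological replicate 2, and lines part the role groups. All siLSD1 arrays lie left of all siControl arrays for 12 genes, and for HERC6, ISG20 and CXCL10 the siLSD1 arrays lie beside those of siControl replicate 2.

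Of the 26 genes, GBP2 and GBP1, both guanylate-binding proteins, stood farthest from siControl. GBP2, a GTPase that attacks the vacuoles and membranes of pathogens, had signals of 1731, 1582, 1313 and 1264 in siLSD1 (arrays of replicate 1, then of replicate 2), against 3300, 3046, 3167 and 3404 in siControl. The groups did not overlap and the siControl cultures were alike. The log2 difference was -1.12 ± 0.16 (SE of the limma fit, n = 2 each; adjusted p = 0.199), with -1.04 and -1.20 against the siControl replicates taken singly. GBP1, a large GTPase of the same family, had signals of 416, 375, 334 and 363 in siLSD1, against 1497, 1316, 851 and 721 in siControl. Its siLSD1 arrays were all below its siControl arrays, but the siControl cultures lay 0.83 apart on the log2 scale (-0.83, replicate 2 minus replicate 1). The log2 difference of GBP1 was -1.58 ± 0.29 (limma adjusted p = 0.238), from -1.99 against siControl replicate 1 to -1.16 against replicate 2. GBP1 and GBP2 were the 2 members over 2-fold lower, and GBP1 had the 18th lowest estimate of the 16049 genes tested. Of their relatives outside the 36 genes, GBP3 was at -0.40 ± 0.18 (limma adjusted p = 0.497) with 1 of 4 siLSD1 arrays and 4 of 4 siControl arrays above the control rows, and GBP4 and GBP5 were above them on 0 of 8. CXCL10, the chemokine of this group that attracts T cells, was above the control rows on 1 of 4 siLSD1 arrays and 3 of 4 siControl arrays. Its signals were 192, 168, 157 and 177 in siLSD1, against 290, 280, 179 and 182 in siControl. Only siControl replicate 1 stood apart for CXCL10. It reached the 4 arrays needed mainly through siControl, its siLSD1 level was at background, and so its log2 difference of -0.51 ± 0.30 is no exact size; it was -0.94 against that culture and -0.08 against siControl replicate 2.

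Among the RNA sensors and transcription factors, 5 of 6 had lower estimates, against 48.9% of all genes tested. Of these, 3 were lower at an unadjusted p under 0.05, against 5.74% of all genes. STAT2, a subunit of the ISRE-binding complex, had signals of 2653, 2572, 2562 and 2490 in siLSD1, against 4495, 4244, 3952 and 3726 in siControl. The groups did not overlap, and the log2 difference of STAT2 was -0.63 ± 0.14, at -0.67 and -0.59 against the siControl replicates. IRF7, the factor that amplifies interferon production, had signals of 1354, 1279, 1471 and 1363 in siLSD1, against 2474, 2438, 2531 and 2040 in siControl. The siControl cultures were nearly equal for IRF7, and the log2 difference was -0.76 ± 0.16, with -0.76 against siControl replicate 1 and -0.75 against replicate 2. IFIH1, the sensor of long double-stranded RNA, had signals of 810, 783, 664 and 616 in siLSD1, against 1188, 1169, 941 and 853 in siControl. IFIH1 did not overlap between the groups, though its log2 difference of -0.52 ± 0.19 was -0.71 against siControl replicate 1 and -0.33 against replicate 2. Limma's adjusted p was 0.270 for STAT2, 0.259 for IRF7 and 0.404 for IFIH1.

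The other 3 factors did not separate. IRF9, which gives the ISRE-binding complex its DNA contact, had signals of 4537, 4709, 3626 and 4131 in siLSD1, against 3686, 3485, 4489 and 3424 in siControl, with overlap. Its log2 difference was 0.23 ± 0.16, of opposite sign to that of STAT2, its partner. IRF1, a factor induced by interferon-gamma, had signals of 2582, 2179, 2607 and 2637 in siLSD1, against 3497, 3948, 2822 and 2515 in siControl, a log2 difference of -0.29 ± 0.20. The groups overlapped for IRF1 through siControl replicate 2. RIGI, the sensor of short RNA with a triphosphate end, stood close to the control rows at 226, 180, 186 and 195 in siLSD1, against 202, 188, 203 and 211 in siControl, a log2 difference of -0.07 ± 0.14.

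The IFIT proteins bind foreign RNA and block its translation, and 3 of the 4 genes were tested. IFIT2 had signals of 750, 769, 614 and 647 in siLSD1, against 1416, 1333, 1208 and 1153 in siControl. Every siLSD1 array lay below every siControl array, and the log2 difference was -0.89 ± 0.15 (limma adjusted p = 0.234), at -0.98 and -0.80 against the siControl replicates. IFIT3 stood nearer to the control rows, at 234, 216, 214 and 218 in siLSD1, against 249, 248, 287 and 286 in siControl, with a log2 difference of -0.35 ± 0.14. IFIT1 had signals of 284, 273, 268 and 257 in siLSD1, against 287, 276, 347 and 348 in siControl. Its log2 difference was -0.26 ± 0.16. The IFIT1 arrays overlapped before normalization and not after it. For IFIT1 and IFIT3 the siControl replicate farther from siLSD1 was replicate 2, while for IFIT2 it was replicate 1. IFIT5 had signals of 127 to 158 in siLSD1 and 142 to 162 in siControl, below the control rows.

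ISG15 is a ubiquitin-like protein that is attached to other proteins, with HERC5 as the main human ligase and USP18 as the enzyme that removes it. ISG15 had signals of 1830, 1864, 1856 and 1946 in siLSD1, against 3546, 3366, 2811 and 2654 in siControl. The 4 siLSD1 arrays were close to each other and all below siControl, with a log2 difference of -0.67 ± 0.17 (limma adjusted p = 0.300), at -0.78 and -0.55 against the siControl replicates. HERC5 had signals of 206, 192, 202 and 193 in siLSD1, against 340, 362, 175 and 162 in siControl, so that siLSD1 lay between the siControl cultures. The log2 difference of HERC5 was -1.02 when set against siControl replicate 1 but 0.32 when set against replicate 2. The siControl cultures of HERC5 differed by -1.34, the largest gap among the 26 genes. HERC6, a relative of HERC5, had signals of 181, 193, 215 and 214 in siLSD1, against 339, 322, 215 and 198 in siControl, again apart from siControl replicate 1 only. USP18 was not above the control rows on any siLSD1 array, with 165, 150, 153 and 151, and on 2 of 4 siControl arrays, with 214, 188, 238 and 168. Its log2 means were 6.82 in siLSD1 and 7.32 in siControl, and no fold is given, because siLSD1 and part of the siControl arrays were not above the control rows.

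The OAS proteins make short adenylate chains that switch on the RNA-cutting enzyme RNase L, and OASL is a relative without that activity. Their estimates were not of 1 sign. OAS1 had signals of 1072, 1042, 992 and 882 in siLSD1, against 558, 531, 940 and 866 in siControl; after normalization all siLSD1 arrays lay above all siControl arrays. The log2 difference of OAS1 was 0.54 ± 0.27 (limma adjusted p = 0.532), but 0.92 against siControl replicate 1 and 0.17 against replicate 2. OAS3 had signals of 707, 622, 517 and 586 in siLSD1, against 862, 761, 747 and 670 in siControl, a log2 difference of -0.32 ± 0.16 (limma adjusted p = 0.513). OAS3 is thus the 1 member of the family whose siLSD1 arrays, after normalization, all lay below siControl. OASL had signals of 284, 259, 225 and 254 in siLSD1, against 423, 413, 288 and 256 in siControl, and its log2 difference of -0.47 ± 0.28 was -0.86 against siControl replicate 1 and -0.08 against replicate 2. OAS2 was below the control rows on all arrays, with 116 to 124 in siLSD1 and 109 to 133 in siControl. MX1, a GTPase that traps viral nucleocapsids, had 143, 134, 151 and 157 in siLSD1, below the control rows, against 184, 167, 187 and 206 in siControl, where 2 of 4 arrays were above; no fold is given for it (log2 means of 6.71 in siLSD1 and 7.19 in siControl). RSAD2 (viperin), an antiviral enzyme of the endoplasmic reticulum, had signals of 157 to 177 in siLSD1 and 151 to 188 in siControl and gave no direction.

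Among the membrane proteins, IFITM2 and IFITM3, which hinder virus entry by membrane fusion, differed more between the siControl cultures than between the groups. IFITM3 had signals of 5724, 6653, 5159 and 5190 in siLSD1, against 5043, 5436, 9451 and 8105 in siControl. The siLSD1 arrays of IFITM3 lay near siControl replicate 1 and below replicate 2, with log2 differences of 0.22 and -0.61. IFITM2 had signals of 5995, 5464, 5526 and 5613 in siLSD1, against 5169, 4893, 8605 and 7973 in siControl, the same order of cultures as IFITM3. Because IFITM2 and IFITM3 are near-identical copies, their probes can share transcripts and their values are uncertain in that respect. IFI6, a membrane protein that opposes replication of flaviviruses, had signals of 754, 660, 798 and 722 in siLSD1, against 907, 955, 1066 and 990 in siControl, without overlap. Its log2 difference was -0.41 ± 0.17 (limma adjusted p = 0.446), at -0.33 and -0.50 against the siControl replicates. IFITM1 had 171 to 197 in siLSD1 and 145 to 173 in siControl, above the control rows on 2 of the siLSD1 arrays; no fold is given. BST2 (tetherin), which holds budding virus at the surface, and IFI27 were below the control rows on all arrays. BST2 had signals of 141 to 168 in siLSD1 and 149 to 174 in siControl, and IFI27 had 125 to 137 in siLSD1 and 112 to 142 in siControl.

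Of the remaining effectors, IFI35, which acts in complex with NMI, had signals of 1340, 1168, 1207 and 1163 in siLSD1, against 2031, 2224, 1953 and 1660 in siControl. The groups did not overlap, and the log2 difference was -0.65 ± 0.14 (limma adjusted p = 0.270), at -0.72 and -0.58 against the siControl replicates. ISG20, an exonuclease that degrades RNA, had signals of 3992, 3768, 4240 and 4195 in siLSD1, against 7901, 7216, 4334 and 3822 in siControl. The siLSD1 level of ISG20 was that of siControl replicate 2, with a log2 difference of -0.01 against it and -0.82 against replicate 1. TRIM21, a cytosolic antibody receptor, was likewise at -0.48 against siControl replicate 1 and 0.14 against replicate 2, with signals of 623 to 807 in siLSD1 and 629 to 994 in siControl. XAF1, which promotes apoptosis, had 453 to 557 in siLSD1 and 414 to 614 in siControl (log2 difference 0.02 ± 0.19), and the nuclear body protein gene SP100 had 207 to 248 in siLSD1 and 237 to 269 in siControl (log2 difference -0.27 ± 0.14). IFI44 had signals of 138 to 157 in siLSD1 and 154 to 181 in siControl, above the control rows on 1 siControl array, and IFI44L had 108 to 129 in siLSD1 and 108 to 134 in siControl, below them.

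The comparison with each siControl culture sorted the 26 genes. Estimates were lower than both cultures for 19 of the 26 genes (73.1%), against 28.3% of all genes tested. For IRF9 and OAS1 they were higher than both (share of all genes not given). HERC5 and TRIM21 were lower than siControl replicate 1 and higher than replicate 2, and IFITM2, IFITM3 and XAF1 the other way round. For 12 of the 26 the siControl cultures differed from each other more than siLSD1 differed from their mean, GBP1 not being among them. The siControl cultures lay over 0.5 apart (log2) for 10 genes and the siLSD1 cultures for 0. Shares of all genes for these counts are not given here, but the wider siControl gap was present over all genes too. The SD of the siControl replicate difference was 0.56 over the 26 genes and 0.48 over all genes tested. For the siLSD1 replicates it was 0.17 and 0.18. The median over the 26 genes was -0.58 against siControl replicate 1 and -0.28 against replicate 2. Of the 8 genes at an unadjusted p under 0.05, STAT2, IRF7, IFIT2, ISG15, IFI35 and GBP2 had siControl cultures within 0.25 of each other, while GBP1 was the 1 whose fold differed by over 1.5 times between them. With all 8 arrays in the fit and the biological sample as a random block, limma called 6 of the 26 genes, all lower. They were GBP1, GBP2, IFIT2, STAT2, IRF7 and ISG15 (adjusted p from 0.00497 to 0.0368), where 1.55% of all genes were called as lower. That fit uses 1 correlation of 0.723 between technical arrays for every gene. It also counts technical arrays in its degrees of freedom, though each group has only 2 cultures, so its p-values can be too small.

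**Figure D4:**
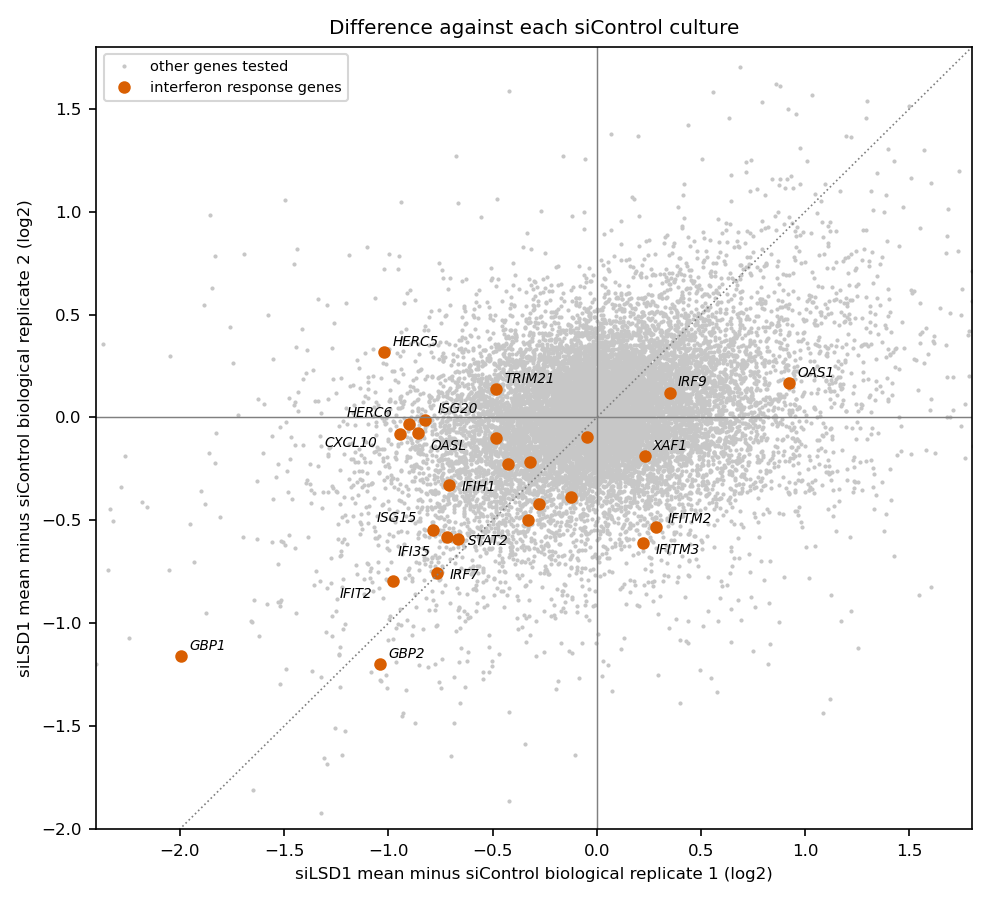
Log2 difference of the siLSD1 mean from siControl biological replicate 1 (horizontal) and from replicate 2 (vertical) for all 16049 genes tested (grey; some lie outside the axes) and the 26 interferon response genes (orange); the dotted line marks equal differences. Both axes share the siLSD1 mean, which by itself draws points toward the dotted line. GBP2, IRF7, STAT2, IFI35, ISG15 and IFIT2 lie near the line, and GBP1, HERC5, HERC6, CXCL10, OASL and ISG20 lie far left of it.

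The rest of the pathway was followed with lists of genes named for their role, also chosen with earlier results known. The 21 interferon genes (IFNA genes, IFNB1, IFNE, IFNK, IFNW1, IFNG and IFNL1 to IFNL3) were all too dim to be tested, and 19 of them were above the control rows on 0 of 8 arrays. IFNB1 had signals of 106 to 111 in siLSD1 and 97 to 116 in siControl. Of 9 receptor and Janus kinase genes 8 were tested, 6 with higher and 2 with lower estimates (25% lower, against 48.9% of all genes). IFNGR1, the ligand-binding chain of the interferon-gamma receptor, had signals of 2936, 2793, 2399 and 2506 in siLSD1, against 2041, 1713, 1623 and 1479 in siControl. The siLSD1 arrays were all above siControl, with a log2 difference of 0.71 ± 0.15 (limma adjusted p = 0.259). IFNGR2 stood at 0.41 ± 0.15, and IL10RB, a chain of the type III interferon receptor, at -0.55 ± 0.15. These were the 3 of the 8 at an unadjusted p under 0.05 (12.5% lower and 25% higher, against 5.74% and 5.73% of all genes), and 0 passed adjusted over all genes.

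Of the 6 STAT and IRF factors outside the 36 genes, STAT3 and IRF8 were at an unadjusted p under 0.05, both higher (33.3%, against 5.73% of all genes), at 0.82 ± 0.14 and 0.64 ± 0.16. STAT3, which carries signals of interleukin-6, had signals of 2791, 2790, 2564 and 2501 in siLSD1, against 1753, 1679, 1543 and 1391 in siControl, without overlap. Of 11 nucleic acid sensing genes tested out of 16, TLR3, the endosomal sensor of double-stranded RNA, was lower by estimate at -0.75 ± 0.15, and the others were not at an unadjusted p under 0.05 (9.09% lower, against 5.74% of all genes). TLR3 was above the control rows on 2 of 4 siLSD1 arrays and 4 of 4 siControl arrays, so that its siLSD1 level was close to background and the difference is no exact size. Its signals were 199, 174, 168 and 175 in siLSD1, against 279, 259, 278 and 262 in siControl. Among 12 negative regulators, PIAS1, an inhibitor of STAT signalling, stood at 0.44 ± 0.15 and the phosphatase PTPN1 at -0.70 ± 0.27, with 9 lower and 3 higher estimates in all (75% lower, against 48.9% of all genes). PIAS1 and PTPN1 were the 2 at an unadjusted p under 0.05 (8.33% in each direction), and PTPN1 stood at -1.08 against siControl replicate 1 and -0.32 against replicate 2. None of these genes passed limma's test over all genes, where 0 genes passed.

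A list of 60 further interferon-stimulated genes gave 38 tested genes, 30 of them with lower estimates (78.9%, against 48.9% of all genes), and a median log2 difference of -0.17. At an unadjusted p under 0.05 there were 7, all lower (18.4%, against 5.74% of all genes), and 0 passed adjusted over all genes. Like the 36 genes, this list was chosen with earlier results known, so its shares are no independent test. TAP1, the peptide transporter that loads HLA class I, had signals of 2122, 2195, 1969 and 1920 in siLSD1, against 4311, 4486, 3283 and 2919 in siControl, a log2 difference of -0.80 ± 0.18. The immunoproteasome subunits PSMB9 and PSMB10 stood at -0.76 ± 0.16 and -0.72 ± 0.18. UBA7, the enzyme that activates ISG15 for conjugation, had signals of 434, 427, 502 and 417 in siLSD1, against 708, 662, 1108 and 1095 in siControl, and a log2 difference of -1.02 ± 0.27. The UBA7 difference was -0.65 against siControl replicate 1 and -1.39 against replicate 2. TRIM5, PARP10 and IFI30 complete the 7, at -0.54 ± 0.17, -0.53 ± 0.17 and -0.60 ± 0.20.

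**Figure D5:**
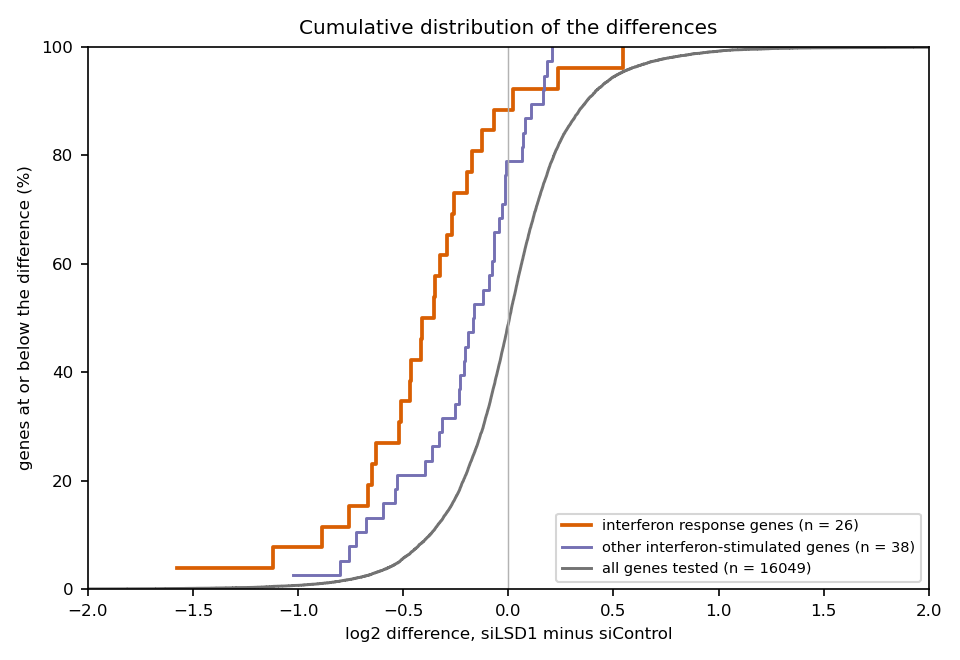
Share of genes (%) at or below each log2 difference, siLSD1 minus siControl, for the 26 interferon response genes, the 38 further interferon-stimulated genes and all 16049 genes tested; a few genes lie outside the axis. The median of the 26 genes is -0.38 and that of the 38 genes is -0.17, against 0.01 for all genes.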

How the data were processed

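Expression was measured in 4 biological samples (8 arrays). The authors deposited bead intensity, non-normalized and on a linear scale, with 1 row per gene symbol, and a detection p-value for each row and array; the submitters' processing notes name BeadStudio 3.1.1.0. A second deposited table holds intensity normalized by the authors. Of these tables, the array type, the summary over probes and their normalization are not given in the sources used here. Signals were corrected with normexp (offset 50), quantile normalized and taken to log2. Rows above every ERCC row on at least 4 arrays were tested (16049 genes); detection p was used as an alternative filter. Values of the 2 technical arrays were averaged per sample before siLSD1 and siControl were compared with limma 3.58.1 in R 4.3.3 (lmFit, eBayes, two-sided, Benjamini-Hochberg over all genes tested, threshold 0.05). The fit was tested on simulated data. Errors after ± are standard errors of the log2 difference. Symbols were updated with RefSeq names of GRCh38.p14: 17762 rows carried a current symbol and 2735 an older one.

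The members and lists were chosen with earlier results of these data known, so no list was given a test of its own. All 36 genes are accounted for; arrays are listed for members at an unadjusted p under 0.05 and for the brightest of each role group, with others added after their values were seen. In the other lists, genes at an unadjusted p under 0.05 are named, at most 6 a list by p; IFI30, the 7th of its list, and IFNB1 were added afterwards. Some genes are not reported here. Protein sequences were not used here. Tried as alternatives were neqc, median scaling, the authors' normalized values, an offset of 16, detection filters on 4 or 8 arrays, no filter, technical replicates modelled, a replicate block, and each sample or array left out.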

Additional observations from a re-analysis of the deposited data

Results flagged for a closer look

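Among the 26 genes tested, each group of 4 arrays was examined for an array far from the other 3, 52 groups in all; chance flags about 1 in 20 groups, and arrays of a sample are not independent. IFITM3 on siLSD1 array 2 had a log2 normalized signal of 12.69, where the nearest siLSD1 array had 12.43. HERC5 on siLSD1 array 3 had 7.34, against 7.28 for the nearest. SP100 on siControl array 3 had 7.57, against 7.80 for the nearest.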

How the results depend on the processing

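Counts of calls depended on how the spread was estimated. The number of genes called over all genes was 0 under each alternative that keeps every array except for the technical replicates modelled. That fit, which counts technical arrays in its degrees of freedom, gave 501. Leaving out a sample or an array gave 0 to 5613 genes called, with 2320 without siControl biological replicate 1 and 5613 without siControl biological replicate 2, where the remaining siControl culture is taken to have the spread of the siLSD1 cultures. Genes at an unadjusted p under 0.05 numbered 1840, with 2932 under no filter (34602 genes tested) and 339 to 6879 when a sample or array was left out. The interferon genes at that level, 8 lower, became 13 under no filter and 3 to 18 with a sample or array left out: 13 and 18 without siControl biological replicates 1 and 2, 3 and 5 without siLSD1 biological replicates 1 and 2. Lower estimates numbered 14 of 15 with detection p on all 8 arrays, and 21 to 24 of 26 with a sample or array left out. After neqc the median was -0.035 over the 36 genes and -0.11 over the 26, and GBP1 stood at -0.43; neqc infers its background from the detection p-values. With a sample or array left out the median ran from -0.36 to -0.21 over the 36 genes and from -0.58 to -0.28 over the 26. The 8 genes at an unadjusted p under 0.05 kept their sign under all 21 alternatives. Of the 26 genes, 20 did; RIGI, HERC5, IFITM2, IFITM3, XAF1 and TRIM21 turned under at least 1. With the replicate number as a block 0 genes were called (smallest adjusted p 0.133). The replicate numbers are not said to mark a shared day, and the replicate differences of the groups correlated at 0.121 over genes, so the block was no part of the reported fit. The causes of these shifts were not tested.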
